A study of Mus musculus with 4 samples.

Results

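The ER stress and protein folding genes described here are 32 genes of the unfolded protein response and of protein folding and degradation in the endoplasmic reticulum (ER), out of 32285 genes counted. They were listed by name for their known function, without a rule on measured values. They comprise 3 stress sensors, the transcription factor Xbp1, 15 chaperones and folding enzymes of the ATF6/XBP1 side, 5 genes of ER-associated degradation (ERAD), 6 genes of the ATF4/CHOP side and 2 other ER membrane proteins. Their transcripts were counted in single cells of cultured pancreatic islets treated with TCDD, the dioxin ligand of the aryl hydrocarbon receptor. One library came from Malat1-/- islets (Malat1-null, lacking the long non-coding RNA Malat1) and the other from wild-type islets, both of strain C57BL/6. The labels state neither the dose nor the duration of TCDD. Libraries of DMSO-treated islets are not analysed here, and an effect of TCDD was therefore not measured. With 1 library per genotype no test is possible, and an effect of genotype cannot be told apart from any other difference between the libraries. Intervals are 95% and cover counting error only.

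The ER folds secreted and membrane proteins, and in beta cells proinsulin makes up much of that load. When unfolded proteins accumulate, sensors in the ER membrane start the unfolded protein response. IRE1 (gene Ern1) splices Xbp1 mRNA, and the resulting XBP1 protein acts together with a fragment released from ATF6 to induce chaperones, folding enzymes and ERAD genes. PERK (gene Eif2ak3) phosphorylates eIF2alpha, which slows translation in general but favours ATF4. ATF4 in turn induces CHOP (gene Ddit3) and genes of amino acid supply, and this branch can also be entered from other stresses through other eIF2alpha kinases. Splicing of Xbp1 and the activity of the sensor proteins are not seen in counts from 3′ ends.

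The motifs found differed between promoters of the 2 sides, but not every member held one. Motifs were searched on both strands from 250 bases before to 50 bases after the transcription start in RefSeq promoters (build GRCm38.p6), which held 29 of the 32 members; Atf6, Hyou1 and Manf were not among them. The ER stress element (ERSE), the letters CCAAT and CCACG with 9 bases N between them, was found in 8 members, 7 of them among 13 chaperones, and in 0 of 6 ATF4/CHOP genes. These were Hspa5, Creld2, Pdia6, Syvn1, Calr, Canx, Dnajc3 and Hsp90b1. Of all 27025 genes with a promoter in the table, 0.137% held it. The related element ERSE-II, ATTGG and CCACG with 1 base N between them, was found in Dnajb11 and Herpud1 and in 0.0444% of all genes. The letters TGATGNAA, the core of the CARE element bound by ATF4 with its partners, were found in 3 of 6 ATF4/CHOP genes (Asns, Chac1 and Trib3), in 0 of 13 chaperones, in Herpud1, and in 4.51% of all genes. The letters TGACGTGG of the UPRE motif were found in 0 of the 29 members, against 0.714% of all genes. A match describes letters and not binding.

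The stretches below are shown because each holds a motif described above, and they belong to genes whose values are given further on. Capitals mark the fixed letters of a motif, in either orientation; all are printed 5′ to 3′ along the strand of the gene, and no 2 motifs overlap. The stretches of Hspa5 and Asns are kept short because a GENCODE transcript model begins upstream of the RefSeq start there. In order, they lie at chr2:34772020-34772048 (plus strand), chr15:88819505-88819553 (plus), chr12:17266476-17266524 (plus), chr19:6046517-6046565 (plus), chr8:94386302-94386402 (plus), chr2:119351034-119351071 (plus) and chr6:7693220-7693237 (minus).
Hspa5: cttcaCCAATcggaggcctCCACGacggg
Creld2: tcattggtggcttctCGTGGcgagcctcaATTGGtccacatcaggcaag
Pdia6: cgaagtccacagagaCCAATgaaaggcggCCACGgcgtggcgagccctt
Syvn1: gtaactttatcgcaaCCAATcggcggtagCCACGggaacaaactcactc
Herpud1: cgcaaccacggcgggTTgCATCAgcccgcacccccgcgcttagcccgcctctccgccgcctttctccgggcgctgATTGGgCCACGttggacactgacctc
Chac1: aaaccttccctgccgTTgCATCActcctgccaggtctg
Asns: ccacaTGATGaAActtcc
In Hspa5, Creld2, Pdia6 and Syvn1 the ERSE began 65, 126, 98 and 44 bases before the start, and in Herpud1 an ERSE-II lay 52 bases and a CARE core 112 bases before it.

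The Malat1-null library held 134950186 UMIs (unique molecular identifiers, 1 for each captured transcript) and the wild-type library 81872519. Barcodes with at least 1000 UMIs numbered 3198 in the Malat1-null and 2166 in the wild-type library, and 1 barcode occurred in both. Although the labels name beta cells, whole islets were dissociated, and marker genes gave 11 classes. Beta-like barcodes numbered 1740 in the Malat1-null and 903 in the wild-type library, with all 9 beta markers detected in each of their 6 clusters. The smallest counts were 17 Malat1-null barcodes each in the PP-like, ductal-like and mesenchymal-like classes. In beta-like barcodes Malat1 was at 0.498 CPM (UMIs in a total of 1000000, scaled with TMM factors) in the Malat1-null and 15011 CPM in the wild-type library, as the labels say. Clusters that met no class, often with insulin beside another hormone, held 14.8% of the Malat1-null and 4.29% of the wild-type barcodes and were not used.

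In beta-like barcodes the 2 sides of the response stood at different ratios between the genotypes. The ATF4/CHOP genes were higher in Malat1-null than in wild type by a median log2 ratio of 0.52, the chaperones by 0.18, and all 8053 genes measured by 0.05. Of the 32 members, 4 were higher beyond 1.5-fold with an interval that left out 1, namely Chac1, Ppp1r15a, Syvn1 and Atf4, and 0 were lower; of all genes 2.24% were higher and 2.32% lower by this rule. Since UMIs come 1 per transcript, summed UMIs can be set against each other without any scaling. The 15 chaperones gave 4.97 UMIs for every UMI of the 6 ATF4/CHOP genes in Malat1-null and 6.01 in wild type, a ratio of 0.827 (0.814 to 0.840). Abundant genes weigh most in such sums. In Malat1-null, Hspa5 gave 61796 of the 273193 chaperone UMIs and Atf4 19767 of the 54969 ATF4/CHOP UMIs.

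**Figure D1:**
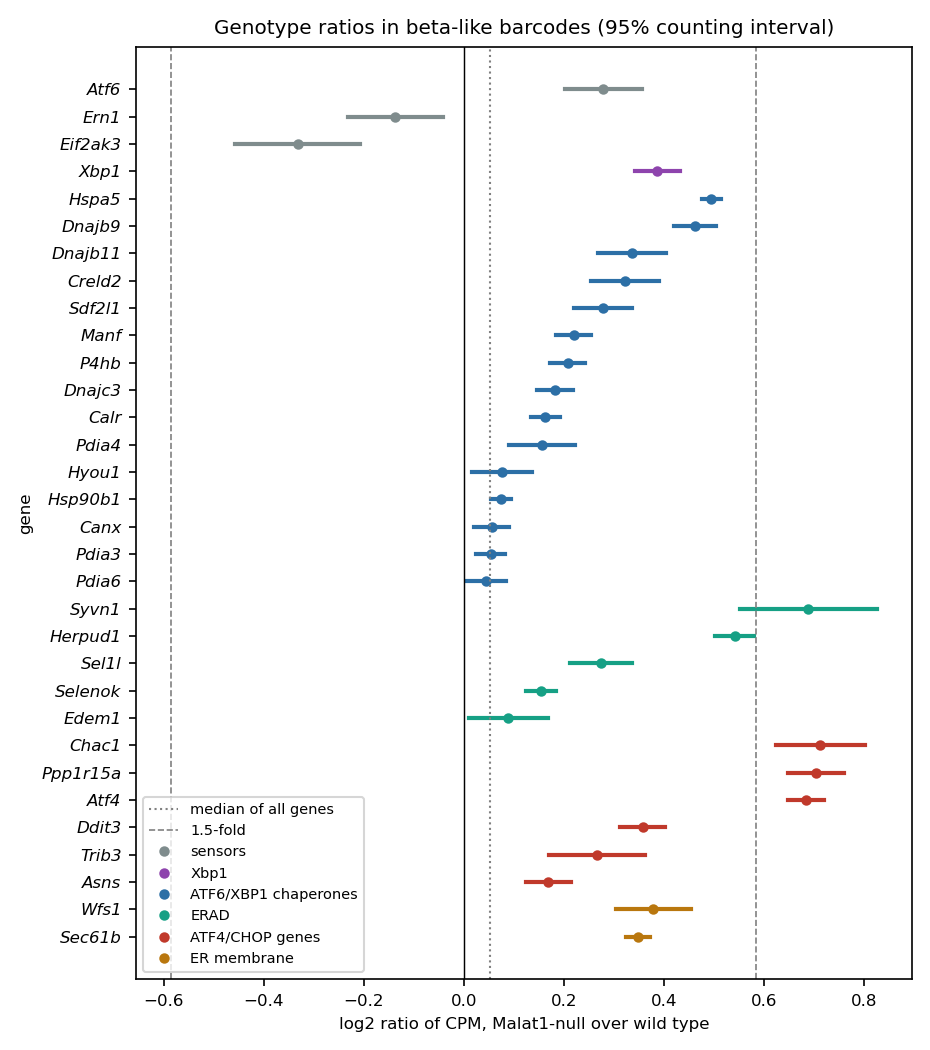
Log2 ratio of CPM, Malat1-null over wild type, of each of the 32 members in beta-like barcodes, coloured by role; points are ratios and bars 95% counting intervals. The dashed lines mark 1.5-fold and the dotted line the median of all genes at 0.05. All 3 points past 1.5-fold in red are ATF4/CHOP genes, and the 15 chaperones lie between 0.04 and 0.50.

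Among the sensors, Eif2ak3, which encodes PERK, was at 21.9 CPM in Malat1-null and 27.6 CPM in wild type, the lowest ratio of all members at 0.794 (0.728 to 0.866). Ern1, which encodes IRE1, was at 39.7 CPM in Malat1-null and 43.6 CPM in wild type, a ratio of 0.909. Atf6 was at 71.6 CPM in Malat1-null and 59.0 CPM in wild type, a ratio of 1.21. The sensors were thus the only role group with members under a ratio of 1. Xbp1 was at 226 CPM in Malat1-null and 173 CPM in wild type, a ratio of 1.31 (1.27 to 1.35).

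All 15 chaperones had a ratio above 1, and 0 of them passed 1.5-fold. Hspa5, the ER Hsp70 known as BiP (chromosome 2, 34771970 to 34777547 in mm10), was the most abundant in Malat1-null and had the highest ratio of the group. It was at 1231 CPM (61796 UMIs) in Malat1-null and 874 CPM (31961 UMIs) in wild type, a ratio of 1.41 (1.39 to 1.43). Dnajb9, an Hsp70 cochaperone, followed at 257 CPM in Malat1-null and 187 CPM in wild type, a ratio of 1.38. At the other end Pdia6, a disulfide isomerase, was at 252 CPM in Malat1-null and 245 CPM in wild type, a ratio of 1.03 (1.00 to 1.06). Hsp90b1, the ER Hsp90 known as GRP94, was at 923 CPM in Malat1-null and 877 CPM in wild type, close to the 874 CPM of Hspa5 in wild type, but had a ratio of 1.05. The chaperones thus did not share 1 ratio: Hspa5 and Dnajb9 stood above the lectin chaperone Canx at 1.04 and the disulfide isomerase Pdia3 at 1.04. The remaining chaperones, Hyou1, Dnajb11, Dnajc3, Sdf2l1, Creld2, Manf, Pdia4, P4hb and Calr, had ratios from 1.05 to 1.26.

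Of the ERAD genes, Syvn1, the ubiquitin ligase HRD1, was at 27.9 CPM in Malat1-null and 17.3 CPM in wild type, a ratio of 1.61 (1.47 to 1.77). Herpud1, a scaffold of the same ligase complex, was at 321 CPM in Malat1-null and 221 CPM in wild type, a ratio of 1.46 (1.42 to 1.495). Sel1l, the adaptor of HRD1, had a ratio of 1.21, and Selenok and Edem1 had 1.11 and 1.06. The most abundant of the 5 was the selenoprotein gene Selenok, at 448 CPM in Malat1-null and 402 CPM in wild type. Of the membrane proteins, Wfs1, whose loss causes diabetes in Wolfram syndrome, was at 80.9 CPM in Malat1-null and 62.2 CPM in wild type, a ratio of 1.301. Sec61b, a subunit of the translocon, was at 824 CPM in Malat1-null and 647 CPM in wild type, a ratio of 1.27.

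Of the ATF4/CHOP genes, Atf4 itself (chromosome 15, 80255184 to 80257541 in mm10) was the most abundant, at 394 CPM (19767 UMIs) in Malat1-null and 245 CPM (8968 UMIs) in wild type. Its ratio was 1.61 (1.57 to 1.65). Chac1, which degrades glutathione, was at 66.0 CPM in Malat1-null and 40.3 CPM in wild type, the highest ratio of all members at 1.64 (1.54 to 1.74). Ppp1r15a, which encodes GADD34 and directs the phosphatase that reverses eIF2alpha phosphorylation, was at 169 CPM in Malat1-null and 103 CPM in wild type, a ratio of 1.63 (1.57 to 1.69). The other members of this side were closer to 1. Ddit3, which encodes CHOP, was at 218 CPM in Malat1-null and 170.4 CPM in wild type, a ratio of 1.28 (1.24 to 1.32). Trib3, a pseudokinase induced by CHOP, had a ratio of 1.20, and Asns, asparagine synthetase, the lowest of the 6 at 1.12 (1.09 to 1.16).

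These ratios depend on the scaling. Insulin transcripts took up a larger part of the beta-like UMIs in Malat1-null (Ins2 alone 410586 CPM of total UMIs) than in wild type (360410). In CPM of total UMIs the median of all genes moved to -0.17 and that of the chaperones to -0.034, with 6 of 15 chaperones above 0. The ATF4/CHOP median was then 0.30, and 0 members passed 1.5-fold. Measured against the median of all genes, 14 of 15 chaperones and 6 of 6 ATF4/CHOP genes stood above it. Since a change of scaling moves every ratio within a class by the same factor, this place is not a check of the scaling. Pdia3, Canx, Hsp90b1 and Hyou1 lay close to the median, at percentiles 50.5, 51.0, 54.8 and 55.0 of all genes.

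Other genes of both sides were measured for comparison, from lists chosen for their known function. Of 54 measured genes on the ATF6/XBP1 side (translocon, glycosylation, disulfide and ERAD genes), 0 were higher beyond 1.5-fold, 2 were lower and 43 had a ratio above 1, with a median log2 ratio of 0.16. Of all 8053 genes measured, 2.24% were higher and 2.32% lower, with a median of 0.05. The highest were Vcp, the ATPase that extracts ERAD substrates, at 1.43, the translocon gene Sec61a1 at 1.42 and the ERAD selenoprotein gene Selenos at 1.42. The lowest were Ero1l, an oxidase of disulfide isomerases, and Kdelr3, a retrieval receptor, both at 0.592, and the peroxiredoxin gene Prdx4 at 0.789. Of 36 measured genes on the ATF4 side, 3 were higher, 1 was lower and 31 had a ratio above 1, with a median of 0.24. The highest were the cystine transporter Slc7a11 at 2.03, Cebpb at 1.55 and the serine synthesis gene Psph at 1.52. The lowest were the amino acid transporter Slc7a5 at 0.503, Atf3 at 0.878 and Iars at 0.945. The longer ATF4 list thus had a median closer to that of the longer ATF6/XBP1 list than the members did.

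The genotypes were spread differently over the 6 beta-like clusters, which were formed without the members among the variable genes. The cluster led by Glp1r and Ucn3 held 39.4% of the Malat1-null and 20.5% of the wild-type beta-like barcodes, and that led by Pdyn held 17.5% and 50.3%. The cluster led by the heat shock genes Hspa1a and Hspa1b held 3.28% of the Malat1-null and 14.1% of the wild-type beta-like barcodes. It also carried the highest Ddit3 level in both libraries, 524 CPM in Malat1-null and 554 CPM in wild type, with Ddit3 among its 10 leading genes. Elsewhere Ddit3 ranged from 185 to 236 CPM in Malat1-null and from 75.7 to 157 CPM in wild type. Trib3 was also highest in this cluster, at 91.6 CPM in Malat1-null and 63.7 CPM in wild type, whereas Atf4 and Chac1 were not. These are levels of clusters within 1 library each and were not tested.

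**Figure D2:**
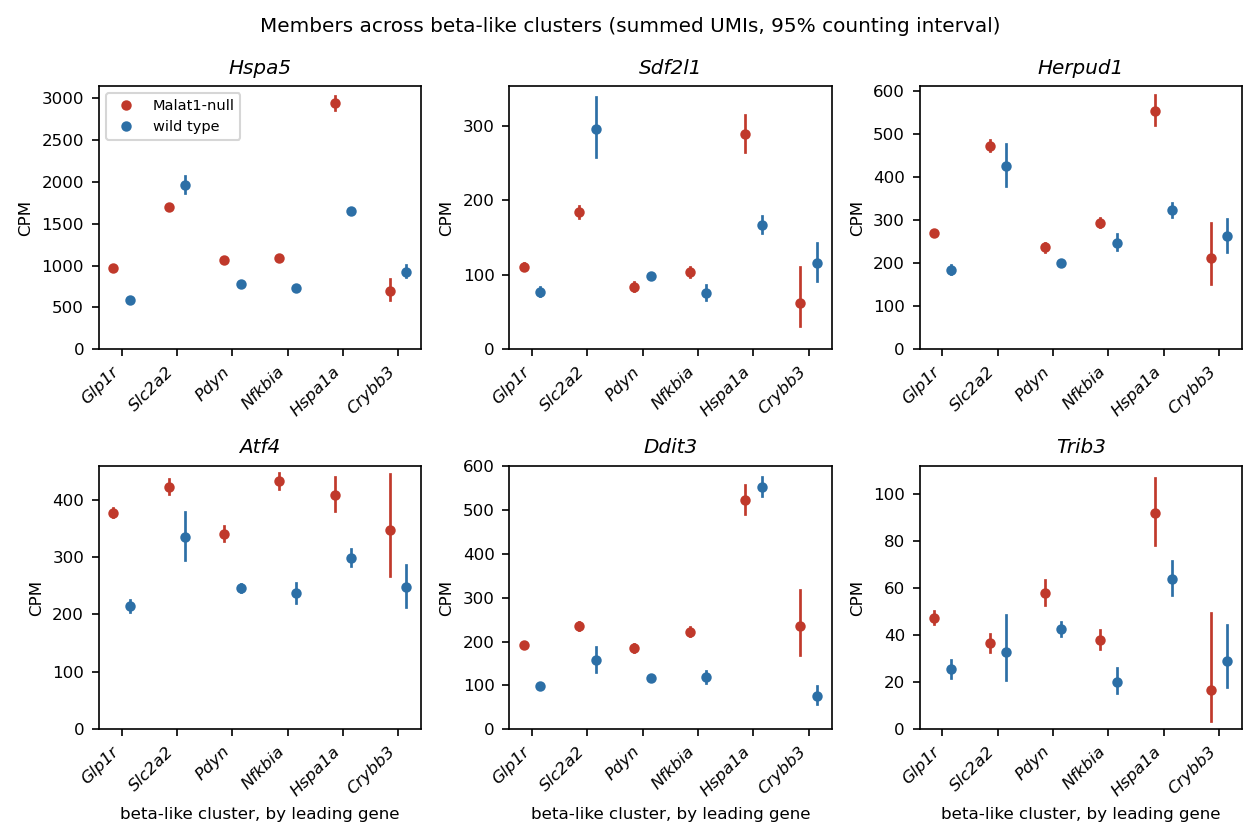
CPM of 6 members (Hspa5, Sdf2l1, Herpud1, Atf4, Ddit3 and Trib3) in each beta-like cluster, named by its leading gene, with Malat1-null in red left of wild type in blue; bars are 95% counting intervals, and the Crybb3 cluster holds 5 Malat1-null barcodes. Ddit3 peaks in the Hspa1a cluster in both libraries, while Hspa5 in wild type is highest in the Slc2a2 cluster at 1962 CPM. This is with TMM factors, which in wild type were 0.694 for the Slc2a2 and 1.15 for the Hspa1a cluster.

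Without the Hspa1a cluster the ATF4/CHOP median log2 ratio was 0.72. Here 7 members passed 1.5-fold, Ddit3, Hspa5 and Herpud1 among them, and 0 were lower, where 2.41% of all genes were higher and 2.31% lower. Leaving out this cluster was not planned beforehand. It was richest in Ddit3 and Trib3 and held a larger share of the wild-type barcodes, so leaving it out by itself raises their ratios. Within the Glp1r cluster 7 members passed 1.5-fold, namely Hspa5, Creld2, Atf4, Ddit3, Trib3, Chac1 and Ppp1r15a, and 0 were lower, where 2.65% of all genes were higher and 1.61% lower. Within the Nfkbia cluster 6 were higher, among them 5 of the 6 ATF4/CHOP genes, and 0 lower, where 3.9% and 2.78% of all genes were. Within the Pdyn cluster, which held most wild-type beta-like barcodes, Ddit3 and Ppp1r15a were higher and 0 members lower, where 1.93% and 3.57% of all genes were. The chaperone median there was -0.091 with 6 of 15 above 0. The ATF4/CHOP median was above 0 in each of the 4 clusters with at least 50 barcodes of both libraries, from 0.46 to 0.91. In the Hspa1a cluster 7 members were higher and 1, Eif2ak3, was lower, where 7.11% and 5.7% of all genes were. The balance of the sides was the reverse there, with 5.98 chaperone UMIs per ATF4/CHOP UMI in Malat1-null and 4.91 in wild type. Its Hspa5 level was 2939 CPM in Malat1-null and 1650.4 CPM in wild type.

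With TMM factors the Slc2a2 cluster, which had the highest Ins2 level in both libraries, was high in chaperones. In wild type it had the highest level of 12 of the 15 chaperones, among them Hspa5 at 1962 CPM, Manf at 624 CPM, Pdia6 at 509.9 CPM and Sdf2l1, a partner of Hspa5, at 296 CPM. In Malat1-null its Hspa5 level was 1698 CPM, below that of the Hspa1a cluster. The TMM factor of the Slc2a2 cluster was 0.694 in wild type (43 barcodes) and 0.783 in Malat1-null. That of the Pdyn cluster was 1.16 in wild type and 1.28 in Malat1-null. A lower factor raises all levels of a cluster, and the order of the clusters under other scalings was not tested. Over the clusters with at least 20 barcodes, Hspa5 spanned 3.01-fold in Malat1-null and 3.34-fold in wild type, and Sdf2l1 3.43-fold and 3.89-fold. Hyou1 spanned only 1.14-fold in Malat1-null and 1.69-fold in wild type. For Hspa5 and Sdf2l1 this spread exceeded their ratios between genotypes of 1.41 and 1.21.

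Single beta-like barcodes were compared after thinning each to 10000 UMIs, which left 1652 Malat1-null and 868 wild-type barcodes and dropped 88 and 35 shallower ones. The median barcode held 26 chaperone UMIs in Malat1-null and 27 in wild type, with 10th to 90th percentiles of 15 to 47.9 and 15 to 48.3. It held 6 ATF4/CHOP UMIs in Malat1-null and 4 in wild type. Hspa5 had the highest variance relative to its mean, 19.1 times in Malat1-null and 7.31 times in wild type, where counting alone gives about 1. This measure grows with abundance, and Hspa5 also had the highest mean, 7.04 UMIs in Malat1-null and 6.04 in wild type. Ddit3, with means of 1.26 and 1.27, had a variance of 4.74 and 4.86 times its mean. The 10% of barcodes richest in Hspa5 held 40.6% of its UMIs in Malat1-null and 33.6% in wild type. For Ddit3 the same share was 40.5% in Malat1-null and 54.7% in wild type, and for Atf4 26.8% and 29.4%. Such shares also rise for scarce genes, as for Syvn1 in wild type, at 91.9% with a mean of 0.114 UMIs. Pairs of chaperones moved together weakly: over 105 pairs the median Spearman rho was 0.14 in either library, highest for Hspa5 with Manf at 0.37 in Malat1-null and 0.35 in wild type. Over the 15 pairs of ATF4/CHOP genes it was 0.06 in Malat1-null and 0.09 in wild type, and over the 90 pairs across the sides 0.05 and 0.06. The highest pair across the sides was Hspa5 with Ddit3, at 0.16 in Malat1-null and 0.21 in wild type. Between the summed UMIs of both sides rho was 0.276 in Malat1-null and 0.279 in wild type. These correlations are descriptions over barcodes of 1 library, and at these counts weak values are not findings.

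Across the 11 classes the balance of the sides varied far more than between genotypes. The class led by Igkc, Jchain and Ighm, named B-cell-like by its markers, had the highest ratio, with 30.3 chaperone UMIs per ATF4/CHOP UMI in Malat1-null and 33.9 in wild type. Endothelial-like barcodes had the lowest, at 1.98 in Malat1-null and 1.67 in wild type. Beta-like barcodes lay in between at 4.97 and 6.01, below alpha-like barcodes at 6.90 in Malat1-null and 7.37 in wild type. This order does not depend on scaling, since each ratio lies within 1 class.

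**Figure D3:**
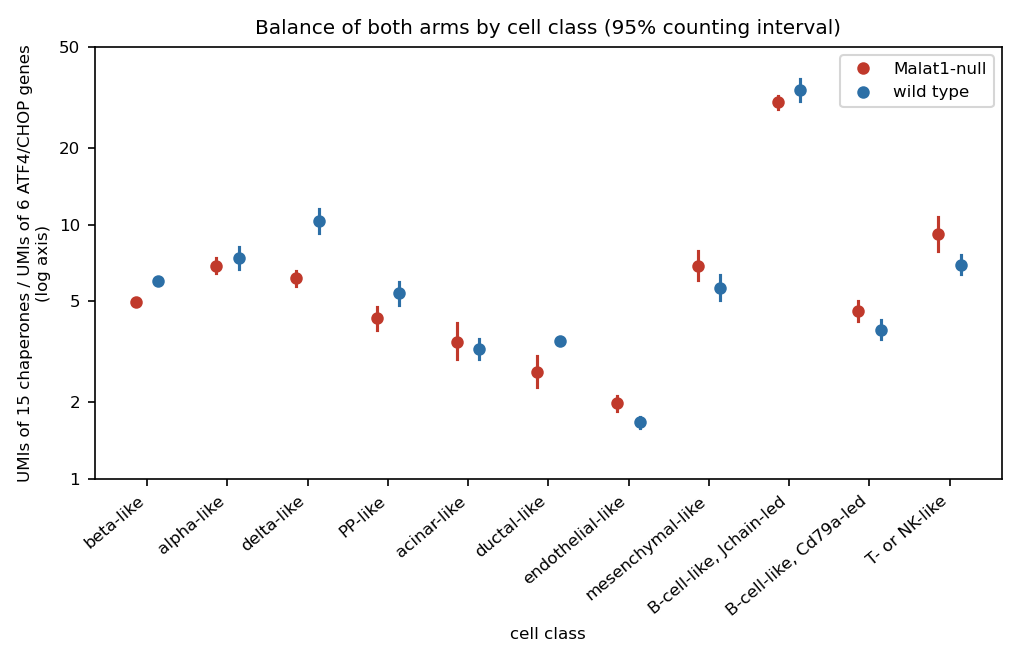
UMIs of the 15 chaperones over UMIs of the 6 ATF4/CHOP genes in each class, on a log axis, with Malat1-null in red left of wild type in blue; bars are 95% counting intervals. The Jchain-led class stands above 30 in both libraries and the endothelial-like class below 2.

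The Jchain-led class (78 Malat1-null and 35 wild-type barcodes) had the highest level of 16 members in both libraries at once. Its members made up 1.99% of its UMIs in Malat1-null and 1.58% in wild type, against 0.485% and 0.466% in beta-like barcodes. Hsp90b1 was at 5390 CPM in the Malat1-null and 3983 CPM in the wild-type Jchain-led class, against 923 CPM and 877 CPM in beta-like barcodes. Manf, a secreted ER protein, was at 2247 CPM in Malat1-null and 1880.2 CPM in wild type, against 344 CPM and 296 CPM in beta-like barcodes. Xbp1 was at 759.7 CPM in Malat1-null and 645 CPM in wild type, against 226 CPM and 173 CPM. The lead did not extend to the ATF4/CHOP genes, of which 4 were lower beyond 2-fold. Ddit3 was at 76.7 CPM in Malat1-null and 40.7 CPM in wild type, against 218 CPM and 170.4 CPM in beta-like barcodes. Counting members more than 2-fold apart in the same direction in both libraries, 14 were higher and 6 lower than in beta-like barcodes, where 15.3% of all genes were higher and 27.9% lower. The 14 included 8 chaperones, and the 6 were Ern1, Ddit3, Trib3, Asns, Ppp1r15a and Wfs1. With hormone, mitochondrial, acinar enzyme and Malat1 UMIs left out of the scaling the counts were 10 and 9, and in CPM of total UMIs 17 and 2.

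Against the other B-cell-like barcodes (230 Malat1-null and 158 wild-type, led by Cd79a and Cd74) the difference was wider. Of the 29 members measured, 23 were higher beyond 2-fold in the Jchain-led class in both libraries and 0 lower, where 12.3% of all genes were higher and 7.3% lower. They included 14 of the 15 chaperones, with Dnajb9 the exception at 2.94-fold in Malat1-null and 1.87-fold in wild type. Creld2, a secreted ER stress protein, was 39.7-fold higher in Malat1-null and 24.1-fold in wild type, and Edem1, which directs misfolded glycoproteins to degradation, 20.6-fold and 18.1-fold. Of the 5 ATF4/CHOP genes measured, 2 were higher and 0 lower by this rule. Chac1 was 20.1-fold higher in Malat1-null and 15.98-fold in wild type, and Asns 7.58-fold and 6.16-fold. Their UMIs in the other B-cell-like barcodes were few, 4 and 3 for Chac1 and 10 and 4 for Asns. Ddit3 leaned the other way, at ratios of 0.581 and 0.329, as did Ppp1r15a at 0.988 and 0.526. Atf4 was at 275 CPM in the Malat1-null and 276 CPM in the wild-type Jchain-led class, against 255 CPM and 249.8 CPM in the other B-cell-like barcodes. The Jchain-led class was separated from the other B-cell-like barcodes after its leading genes had been seen. These also included Mzb1, Ighg2b and Ighg1. No marker list covered antibody-secreting plasma cells, and whether the Jchain-led barcodes are such cells was not tested.

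Insulin UMIs were present in the Malat1-null Jchain-led barcodes, where Ins2 stood at 67352 CPM of total UMIs, against 531 in wild type. In 11 of the 78 Malat1-null and 0 of the 35 wild-type barcodes Ins2 exceeded 1% of UMIs. Without those 11 the chaperone sum in Malat1-null was 20962 CPM instead of 16946 CPM, and the ATF4/CHOP sum 491 CPM instead of 560.0 CPM. The balance of the sides was then 42.7 chaperone UMIs per ATF4/CHOP UMI in Malat1-null, against 33.9 in wild type, so the order of the genotypes turned. Ddit3 was then at 48.5 CPM, close to the 40.7 CPM of wild type, and Hspa5 at 2512 CPM against 1169.8 CPM in wild type. The choice was made after seeing the data.

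**Figure D4:**
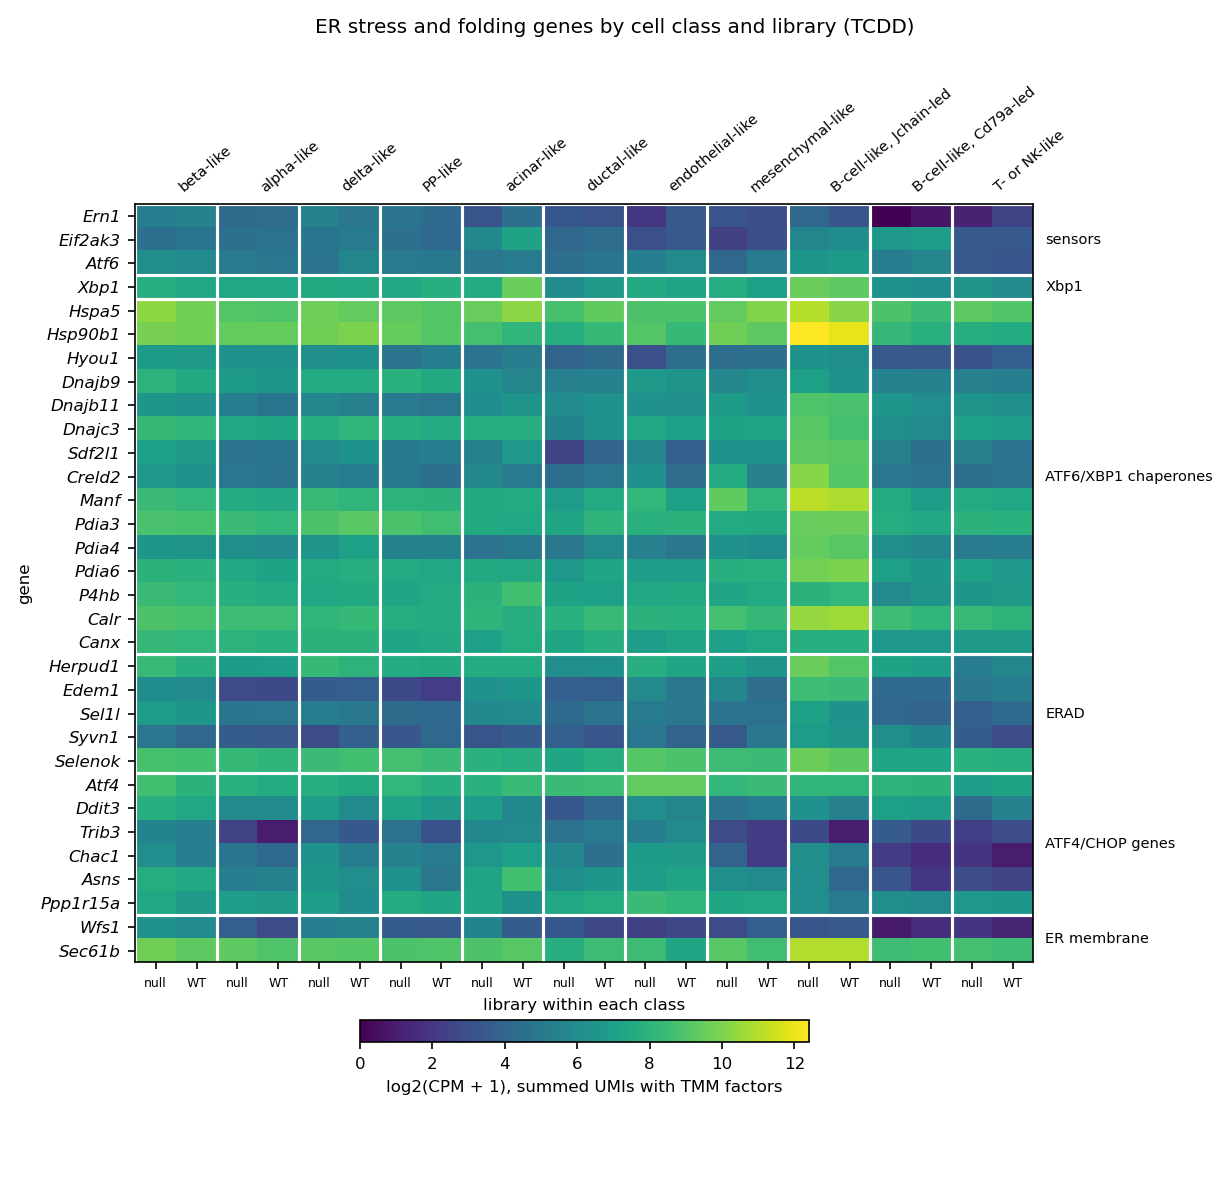
Level of each member, as log2(CPM + 1) of summed UMIs with TMM factors, in the 11 classes; within each class the Malat1-null library is left of the wild-type library, and rows are grouped by role. The brightest column pair is the Jchain-led class, where Hsp90b1 reaches 5390 CPM, while its Ddit3, Trib3, Asns and Ppp1r15a rows are darker than those of beta-like barcodes.

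Beta-like barcodes had the highest level of 4 members in both libraries: Hyou1, an ER chaperone of the Hsp110 family, Canx, Ddit3 and Wfs1. In CPM of total UMIs, of which insulin is a part, they had the highest level of 0 members, and Hyou1, Canx and Wfs1 were highest in delta-like barcodes. With TMM factors, 115 of all 320 pairs of a member and a class were lower and 18 higher than in beta-like barcodes. In CPM of total UMIs 52 were lower and 36 higher. With TMM factors all genes leaned the same way, with more of them lower than higher in every class. Their median log2 ratio to beta-like barcodes ran from -0.69 to -0.25 in Malat1-null and from -0.60 to -0.15 in wild type. Among Hyou1, Canx, Ddit3 and Wfs1, the most uneven between endocrine classes was Wfs1. It was at 12.3 CPM in Malat1-null and 6.48 CPM in wild type in alpha-like barcodes, against 80.9 CPM and 62.2 CPM in beta-like ones. In alpha-like barcodes 12 members were lower than in beta-like ones beyond 2-fold in both libraries and 0 higher, where 10.4% of all genes were lower and 3.75% higher. They included 4 of the 6 ATF4/CHOP genes and 3 of the 15 chaperones. The counts were 5 lower and 0 higher in CPM of total UMIs. With hormone, mitochondrial, acinar enzyme and Malat1 UMIs left out (the scaling without hormone UMIs) they were 12 and 0. Delta-like barcodes were closer to beta-like ones, with 5 members lower and 0 higher, where 8.14% and 3.83% of all genes were; in CPM of total UMIs 1 was lower and 5 were higher. Their Pdia3 level, 491 CPM in Malat1-null and 595 CPM in wild type, was above the 457 CPM and 440.2 CPM of beta-like barcodes. PP-like barcodes had 10 members lower and 0 higher, where 12.5% and 3.12% of all genes were. Scaled by total UMIs, 4 were lower and 0 higher, and without hormone UMIs 8 and 0. Edem1 was lowest there, at 5.58 CPM (3 UMIs) in Malat1-null and 3.84 CPM (3 UMIs) in wild type, against 64.2 CPM and 60.3 CPM in beta-like barcodes.

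In endothelial-like barcodes Atf4 had its highest level of any class under all 3 scalings, 686 CPM in Malat1-null and 689 CPM in wild type, against 394 CPM and 245 CPM in beta-like barcodes. Ppp1r15a was likewise highest there, at 353 CPM in Malat1-null and 281 CPM in wild type. Ddit3, the gene downstream of ATF4, was at only 65.9 CPM in Malat1-null and 48.4 CPM in wild type. Members of this side thus ranked differently within a class. Against beta-like barcodes 11 members were lower in the endothelial-like class and 1, Ppp1r15a, higher, where 26.1% and 16.8% of all genes were. The direction depended on the scaling, with 2 lower and 5 higher in CPM of total UMIs, and 14 and 0 without hormone UMIs.

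T- or NK-like barcodes had 21 members lower and 0 higher than beta-like ones, where 30.8% and 16.2% of all genes were. By total UMIs 12 were lower and 0 higher, and without hormone UMIs 29 and 0. The Cd79a-led B-cell-like barcodes had 19 lower and 2 higher, where 32% and 17.1% were, the higher ones being Syvn1 and Eif2ak3. For this class the counts were 10 and 2 in CPM of total UMIs, and 27 and 1 without hormone UMIs. Asns was the lowest ATF4/CHOP gene against beta-like barcodes, at 8.63 CPM in Malat1-null and 2.83 CPM in wild type. Wfs1 had 1 UMI in Malat1-null and 3 UMIs in wild type, and Ern1 had 0 and 1. Eif2ak3 was at 96.6 CPM in Malat1-null and 111 CPM in wild type there, against 21.9 CPM and 27.6 CPM in beta-like barcodes. The highest levels of this sensor gene were thus outside the endocrine classes. It was at 55.0 CPM in Malat1-null and 140.3 CPM in wild type in acinar-like barcodes. Ductal-like barcodes had 14 members lower and mesenchymal-like ones 12, with 0 higher in either, where 23.9% and 30.0% of all genes were lower and 13.4% and 13.5% higher. Scaled by total UMIs, ductal-like barcodes had 5 lower and 2 higher, and mesenchymal-like ones 2 lower and 4 higher. Without hormone UMIs they had 20 and 12 lower, with 0 higher in either. The lowest chaperone in ductal-like barcodes was Sdf2l1, at 4.78 CPM (2 UMIs) in Malat1-null and 15.3 CPM (96 UMIs) in wild type. Mesenchymal-like barcodes carried Manf at 653 CPM in Malat1-null and 279 CPM in wild type.

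Acinar-like barcodes were shallow, with a median of 1875 UMIs in Malat1-null and 1631.5 in wild type, and carried insulin UMIs. Their Ins2 level was 37.0% of that in free RNA in Malat1-null and 10.9% in wild type, and the median log2 ratio of all their genes between genotypes was -0.52. With that beside them, Xbp1 was at 199 CPM in Malat1-null and 777 CPM in wild type, and Hspa5 at 727 CPM and 1195 CPM. The direction of Hspa5 turned in CPM of total UMIs, with 442.5 in Malat1-null and 395.5 in wild type, whereas Xbp1 was lower in Malat1-null under all 3 scalings. The ratio of the chaperone sum was 0.840 with TMM factors, 1.54 in CPM of total UMIs and 1.31 without hormone, mitochondrial, enzyme and Malat1 UMIs. Against beta-like barcodes 5 members were lower and 1, Eif2ak3, higher, where 24.5% and 6.14% of all genes were. By total UMIs 9 were lower and 1 higher, and without hormone UMIs 10 and 1. The part of free RNA in these levels was not tested.

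Between genotypes the other endocrine classes shared the beta-like direction of the ATF4/CHOP sum. These classes come from the same libraries and are not replicates. In delta-like barcodes it was 657 CPM in Malat1-null and 421 CPM in wild type, a ratio of 1.56 (1.38 to 1.77), while the chaperone sum had a ratio of 0.932 (0.894 to 0.972). Under the other scalings the ATF4/CHOP ratio of delta-like, PP-like and alpha-like barcodes stayed above 1. Delta-like Ddit3 was at 121 CPM (178 UMIs) in Malat1-null and 60.9 CPM (51 UMIs) in wild type, a ratio of 1.99 (1.45 to 2.77). In all, 3 members (Chac1, Ddit3 and Ppp1r15a) were higher and 2 (Atf6 and Pdia4) lower there, where 4.88% and 3.6% of all genes were. In PP-like barcodes the ATF4/CHOP ratio was 1.42 (1.24 to 1.63), with 2 members higher, Ddit3 and Asns, and 0 lower, where 4.07% and 4.58% of all genes were. In alpha-like barcodes it was 1.16 (1.04 to 1.301), with 0 members higher and 0 lower, where 5.74% and 3.45% of all genes were.

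In endothelial-like barcodes the genotypes differed on the other side. The ATF4/CHOP sum had a ratio of 1.03 (0.962 to 1.10) and the chaperone sum 1.22 (1.16 to 1.28). Here 7 members were higher and 2 lower in Malat1-null, where 7.02% and 10.8% of all genes were. Creld2 was at 77.0 CPM in Malat1-null and 20.3 CPM in wild type, a ratio of 3.80 (2.57 to 5.70), and Manf at 294 CPM and 133 CPM, a ratio of 2.21 (1.87 to 2.62). Sec61b was at 362 CPM in Malat1-null and 162 CPM in wild type, a ratio of 2.24 (1.92 to 2.61). The lower ones were Hyou1, with 7 UMIs in Malat1-null and 43 in wild type, and Trib3.

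Chaperone counts relative to ATF4/CHOP counts were thus lower in Malat1-null than in wild type in beta-like, delta-like, PP-like and ductal-like barcodes. The ratios of the ratios there were 0.827, 0.597 (0.525 to 0.679), 0.798 (0.689 to 0.924) and 0.758 (0.659 to 0.873). They were higher in endothelial-like (1.19), mesenchymal-like (1.22), Cd79a-led B-cell-like (1.19) and T- or NK-like barcodes (1.32). In alpha-like, acinar-like and Jchain-led barcodes the interval included 1. The Jchain-led class stood at 0.893 (0.797 to 1.00) with all its barcodes and at 1.26 (1.12 to 1.42) without the 11 Malat1-null barcodes above 1% Ins2.

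In T- or NK-like barcodes 1 member, Sdf2l1, was higher and 1, Ddit3, lower in Malat1-null, where 3.62% and 6.65% of all genes were. In the Cd79a-led B-cell-like class 3 (Sdf2l1, Manf and Syvn1) were higher and 0 lower, where 4.05% and 5.39% were. In the Jchain-led class 8 were higher and 0 lower, where 9.26% and 16.3% were. In mesenchymal-like barcodes 3 (Xbp1, Creld2 and Manf) were higher and 1 (Hspa5) lower, where 14.3% and 12.5% were. In ductal-like barcodes 1 (Chac1) was higher and 8 lower, where 1.75% and 11.4% were, and in acinar-like ones 2 (Ddit3 and Ppp1r15a) were higher and 7 lower, where 5.06% and 38.0% were. Of the calls between genotypes in any class only a few held under all 3 scalings with at least 50 UMIs in each library, and none of them in beta-like barcodes. They were Ddit3 and Ppp1r15a in delta-like, Hsp90b1, Manf, Edem1 and Sec61b in endothelial-like, Manf in mesenchymal-like, and Hspa5, Dnajb9, Creld2 and Sel1l in Jchain-led barcodes, all higher in Malat1-null. Hspa5 in mesenchymal-like barcodes was lower in Malat1-null under all 3 scalings.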

How the data were processed

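Single-cell 3′ libraries (10x Genomics, v3 kit) were made from cultured islets, per the labels' protocols. The deposited matrices are unfiltered raw UMI counts, with a column for every barcode. Per the file headers they came from Cell Ranger 4, whereas the submitters' processing notes name Cell Ranger 2.1.0 and build mm10; the version that made them stays unsettled. Counts at 3′ ends give 1 tag per molecule, so no length scaling was made.

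Barcodes with at least 1000 UMIs were kept. Scrublet removed 7 Malat1-null and 23 wild-type barcodes as doublets, so that an unknown number remains, and 286 and 69 with over 20% mitochondrial UMIs were removed. Both libraries were clustered together with scanpy 1.11.5 on 2000 variable genes without members, Malat1, sex-linked or mitochondrial genes (30 components, 15 neighbours, Leiden resolution 1, igraph 0.11.9). This gave 26 clusters, of which 8 stayed unnamed. A cluster was named from 14 marker lists if its best score was at least 0.6 and at least 3 markers reached 20 CPM. Clusters whose leading genes pointed to another class, with insulin beside another class, or with few UMIs and no leading marker stayed unnamed. An earlier clustering was known when these limits were chosen.

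Each class was summed within its library, and the sums were converted to CPM using TMM (edgeR 4.0.16 in R 4.3.3). Intervals are exact, Poisson for levels and conditional binomial for ratios. The counting of changed genes was tried on simulated data with counting error only, known library sizes and changes larger than the folds used here. It therefore tested neither the TMM factors nor the variation between libraries. Between genotypes a gene was measured at 10 CPM in a library and 50 UMIs over both, and counted as higher or lower beyond 1.5-fold if its interval left out 1. Against beta-like barcodes it was counted beyond 2-fold in the same direction in both libraries. Free RNA was read from barcodes of 10 to 100 UMIs. Ddit3 has a second gene identifier, which held 0 UMIs. The member and pathway lists were chosen with earlier results of these data known. All members were described by role. Fully given were those past the fold, the most abundant and the highest and lowest ratios of a role; other genes were the 3 highest and 3 lowest of their list. Alternatives covered scaling, the UMI minimum, clustering, the sum against the mean of barcodes, the low-value limit, the fold and single beta-like clusters. Promoters were those of RefSeq (GRCm38.p6), and gene positions those of the GENCODE annotation (mm10).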

Additional observations from a re-analysis of the deposited data

Results flagged for a closer look

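Hspa5 differed in direction between 2 classes, under all 3 scalings. In the Jchain-led B-cell-like class its ratio of Malat1-null over wild type was 1.74 (1.63 to 1.86), with 4145 UMIs in Malat1-null and 1207 UMIs in wild type. In the mesenchymal-like class it was 0.642 (0.560 to 0.736), with 324 UMIs in Malat1-null and 615 UMIs in wild type. Each class is 1 library per genotype, the mesenchymal-like one with 17 Malat1-null and 25 wild-type barcodes, and the difference between the classes was not tested.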

How the results depend on the processing

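No paired analysis was possible because each genotype has 1 library, and for the same reason no replicate could be left out. In beta-like barcodes the 4 members higher beyond 1.5-fold became 0 in CPM of total UMIs and 0 at 2-fold, 3 at a minimum of 50 CPM and 5 with the mean of the barcodes' own CPM; they were 4 under each UMI minimum, resolution 2, each library clustered alone, no low-value limit and the scaling without hormone UMIs. The count was 2 within the Pdyn, 6 within the Nfkbia and 7 within both the Glp1r and Hspa1a clusters, with 1 lower in the last, and 7 without the Hspa1a cluster. Leaving out the Hspa1a cluster was not planned beforehand. The chaperone median turned to -0.034 in CPM of total UMIs and to -0.091 within the Pdyn cluster. It was 0.16 without hormone UMIs, 0.14 at 5000 UMIs, 0.24 at the minimum set from the 3000 largest barcodes, 0.15 at resolution 2, 0.47 within the Glp1r and 0.42 within the Hspa1a cluster. The ATF4/CHOP median was 0.30 in CPM of total UMIs, 0.50 without hormone UMIs, 0.49 at 5000 UMIs, 0.48 at the higher minimum, 0.50 at resolution 2, 0.47 with barcode means and 0.68 at 50 CPM. It was 0.46 within the Pdyn, 0.91 within the Nfkbia, 0.86 within the Glp1r and 0.46 within the Hspa1a cluster, and 0.72 without that cluster. The ratio of chaperone to ATF4/CHOP UMIs, Malat1-null over wild type, was 0.880 at the higher minimum, 0.853 with barcode means, 0.764 within the Pdyn, 0.679 within the Nfkbia, 0.812 within the Glp1r and 0.780 without the Hspa1a cluster; within that cluster it turned to 1.22. In the Jchain-led class it turned to 1.26 without the barcodes above 1% Ins2, against 0.893 with them. The cause of these turns was not tested. Over 320 pairs of a member and a class, 18 were higher and 115 lower than in beta-like barcodes; in CPM of total UMIs 36 were higher and 52 lower, at the higher minimum 72 were lower (7 classes compared) and at 1.5-fold 175 were lower. Adding the members to the variable genes, or asking for intervals without 1, left both counts within 1.5 times. With TMM factors all genes leaned the same way, with more lower than higher against beta-like barcodes in every class. Classes of 17 barcodes limit what can be seen of scarce members.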
